A study of Mus musculus with 6 samples.

Results

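The Polycomb genes Ezh2, Eed, Suz12, Rnf2 and Kdm2b and the H3K27 demethylase gene Kdm6b were chosen by name, and all 6 were found among the 12149 genes of the table. RNA of single mouse blastocysts at embryonic day 3.5, on a C57BL/6 background, had been sequenced. Every zygote had been microinjected at 2 ng/µl with small RNAs from sperm and cultured for about 96 h. In the Dep group (3 embryos) the sperm donors were males with stress-induced depression, and in the Ctl group (3 embryos) they were normal males. All embryos analysed here were thus injected, and by the labels each library is 1 whole embryo. The labels do not say whether the males or the injection days of a group were separate. The p-values below therefore measure the spread between these embryos, which may in part be technical. The comparison asks whether the small RNA cargo of sperm from stressed males changes transcripts of the early embryo.

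Polycomb proteins keep developmental genes silent through marks on histones. Polycomb repressive complex 2 (PRC2) methylates a lysine of histone H3 named H3K27: EZH2 or its paralogue EZH1 is the methyltransferase, EED binds the finished mark and stimulates the enzyme, and SUZ12 is the scaffold. Polycomb repressive complex 1 (PRC1) ubiquitinates a lysine of histone H2A named H2AK119 through RNF2, also called RING1B, or RING1. KDM2B, a zinc finger protein that binds unmethylated CpG dinucleotides, brings a variant PRC1 to CpG islands, and KDM6B, also called JMJD3, removes methyl groups from H3K27. In the mouse blastocyst H3K27 methylation also maintains a set of imprinted genes inherited from the oocyte.

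As KDM2B recognises CpG dinucleotides, the promoters of the members were read for them. RefSeq promoters on GRCm38.p6, from 250 bases before to 50 bases after the start of transcription, were matched for 5 of the 6 members. The 3 PRC2 promoters are shown 5′ to 3′ on the gene's strand, because these 3 genes encode the enzyme, the scaffold and the reader of 1 complex and differ in the number of such sites, with each CG in capitals. They lie at chr11:79992856-79993155 on the plus strand for Suz12, and on the minus strand at chr6:47594981-47595280 for Ezh2 and chr7:89980927-89981226 for Eed.
Suz12: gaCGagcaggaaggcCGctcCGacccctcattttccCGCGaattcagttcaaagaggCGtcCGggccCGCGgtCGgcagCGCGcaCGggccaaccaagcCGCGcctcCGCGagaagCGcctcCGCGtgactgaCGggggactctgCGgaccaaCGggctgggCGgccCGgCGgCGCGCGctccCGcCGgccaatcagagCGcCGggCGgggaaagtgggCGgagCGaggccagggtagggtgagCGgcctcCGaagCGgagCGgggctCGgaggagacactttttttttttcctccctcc
Ezh2: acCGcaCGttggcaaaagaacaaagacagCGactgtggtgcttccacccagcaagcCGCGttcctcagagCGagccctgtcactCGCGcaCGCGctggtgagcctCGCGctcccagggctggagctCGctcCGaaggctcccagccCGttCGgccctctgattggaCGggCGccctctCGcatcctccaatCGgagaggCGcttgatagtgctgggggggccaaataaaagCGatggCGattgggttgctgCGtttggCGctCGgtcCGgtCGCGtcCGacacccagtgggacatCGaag
Eed: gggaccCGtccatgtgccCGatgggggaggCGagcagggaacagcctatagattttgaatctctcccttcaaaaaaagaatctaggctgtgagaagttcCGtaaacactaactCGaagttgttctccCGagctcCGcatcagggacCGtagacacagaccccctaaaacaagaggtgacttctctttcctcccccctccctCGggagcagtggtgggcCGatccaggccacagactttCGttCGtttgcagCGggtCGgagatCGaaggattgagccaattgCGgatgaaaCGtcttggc
Suz12 held 41 CG dinucleotides in these 300 bases, Ezh2 31 and Eed 17, and the promoter of Rnf2 held 30. Kdm2b has 4 listed promoters, with 18 to 49. The median over 32851 promoters of this length was 7, and 68.6% (for Eed) to 99.0% (for 1 promoter of Kdm2b) of them held fewer than the promoters of the members. The E2F motif, searched as TTTGGCGC or TTTCCCGC on both strands, was found in Ezh2 at positions 4 to 11 and in Suz12 at positions -219 to -212, counted from the start of transcription, and 1.56% of all promoters hold either form. The letters CCAAT were found in the promoters of Ezh2, Eed and Suz12, in some but not all of those of Kdm2b, and in 37.4% of all promoters. A match is only a match of letters.

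The reads behind the values summed to between 16543356 and 21548220 per library over the listed genes. In Dep 1, 691 genes of the table had 0 reads, whereas 5 to 106 had none in any other library. Trophectoderm markers (6 of 6 listed) were present in every embryo. They summed to between 40206 and 101048 normalized counts in Dep, highest in Dep 1, and between 46216 and 71432 in Ctl. Krt8 and Krt18 made up most of each of these sums. Epiblast markers (6 of 6 listed) summed to between 5673 and 12532 in Dep, lowest in Dep 1, and between 6791 and 10021 in Ctl. Primitive endoderm markers (6 of 6 listed) summed to between 18756 and 25226 in Dep, highest in Dep 1, and between 19616 and 22527 in Ctl. Most of this sum came from Dab2 and Gata6. The epiblast marker Fgf4 and the primitive endoderm markers Gata4, Sox17 and Sox7 were at 0 in Dep 1, and Gata4 was also at 0 in Ctl 3. Other markers of these 2 lists were mixed in Dep 1. Dab2 was highest there (22085), and Pou5f1 (2767) lay above Ctl 3 (1977), whereas Nanog, Sox2, Klf2, Tdgf1 and Gata6 were lowest there. Pdgfra was low in Dep 1 (71.6) and lower in Ctl 3 (41.5). None of 7 cumulus and granulosa markers was listed. Of 4 sperm markers only Prm1 was listed, at 4.18 to 48.6 normalized counts per embryo, and of 6 oocyte markers only Zp3, at 0 in Dep 1 and 11.5 to 125.5 elsewhere. In whole embryos, fewer cells of a type and less RNA per cell cannot be told apart.

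None of the 6 members changed between the groups by the test over all genes, and in each the Dep and Ctl embryos overlapped. Eed had the higher mean in Dep, and Rnf2, Kdm6b, Kdm2b, Suz12 and Ezh2 the lower. Values are normalized counts, that is reads divided by 1 size factor per library as the authors deposited them. The test was limma on log2(normalized count + 1), in which a log2 fold is Dep minus Ctl, with p-values adjusted by Benjamini-Hochberg over all 12149 genes. It called 0 genes at an adjusted p of 0.05, which is 0.00% of those tested, and 225, or 1.85%, had an unadjusted p under 0.05 (0.831% with Dep higher and 1.02% with Dep lower). Of the 6 members 0 passed either threshold. edgeR called 0 genes (0.00%), with 211 (1.74%) at the unadjusted threshold, and DESeq2 called 1 (0.00823%), with 279 (2.30%). Neither called a member at either threshold. Groups did not overlap in 6.90% of all genes and in 0 members.

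**Figure D1:**
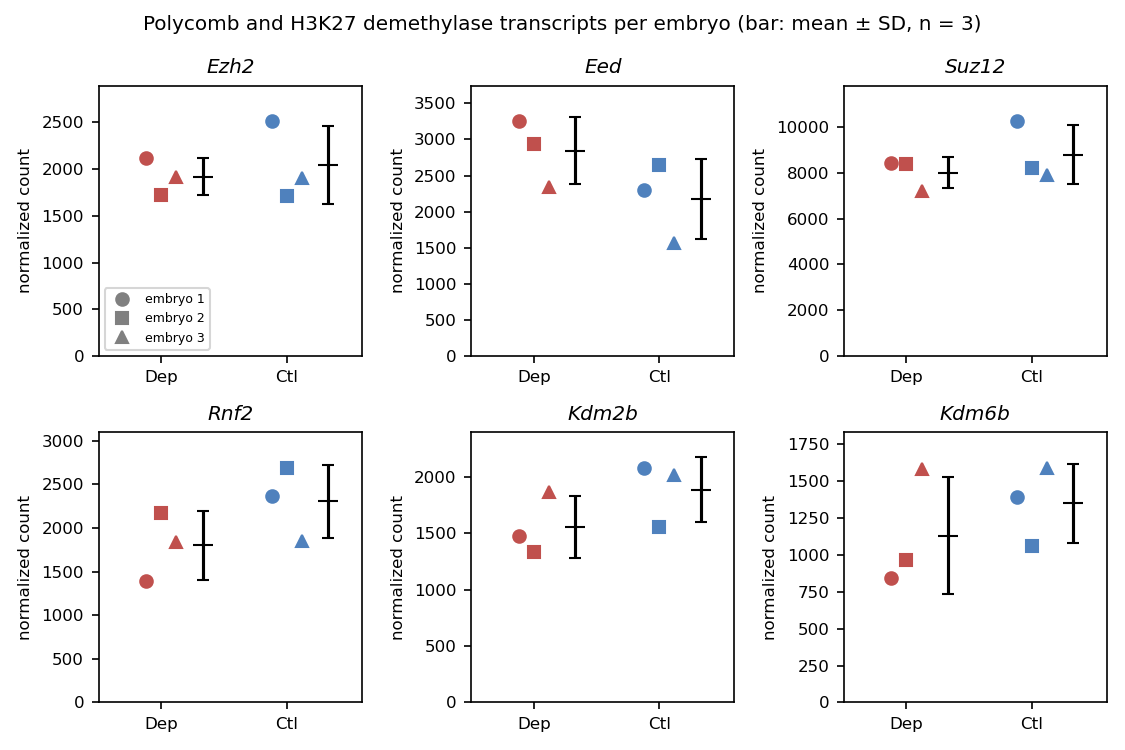
Normalized counts of the 6 members on a linear axis from 0, with 1 symbol per embryo (Dep left, in red, and Ctl right, in blue) and the mean ± SD of 3 embryos beside them. The groups overlap in every panel; the 3 Dep embryos of Eed sit at 2336 to 3253, and those of Ctl at 1562 to 2648.

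Among the PRC2 subunits, Ezh2, the methyltransferase gene (ENSMUSG00000029687, chromosome 6, 47530139 to 47595341), had 2123, 1724 and 1914 normalized counts in Dep 1, 2 and 3, against 2513, 1714 and 1901 in Ctl 1, 2 and 3. Ctl 1 was the highest and Dep 1 the next, and the others lay between 1714 and 1914. Its log2 fold was -0.08 ± 0.27 (SE), with a 95% interval from -0.67 to 0.52 (limma, adjusted p = 0.9997). The sign turned, to 0.08 without Ctl 1, to 0.0002 without Dep 2 and to 0.01 with the Y-linked level as a covariate.

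Eed, the gene of the subunit that reads the H3K27 mark (ENSMUSG00000030619, chromosome 7, 89954654 to 89980983), had 3253, 2942 and 2336 normalized counts in Dep 1, 2 and 3, against 2301, 2648 and 1562 in Ctl 1, 2 and 3. Dep 1 and Dep 2 lay above the 3 Ctl embryos, while Dep 3 lay among them and Ctl 3 was the lowest. Its log2 fold was 0.41 ± 0.29 (SE), with an interval from -0.23 to 1.05 (limma, unadjusted p = 0.184, adjusted p = 0.9997). An exact permutation test of Eed over the embryos (two-sided) gave p = 0.2, where the smallest p that 3 against 3 allow is 0.1. The fold of Eed was 0.19 without Ctl 3 and 0.57 without Ctl 2.

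Suz12, the scaffold gene (ENSMUSG00000017548, chromosome 11, 79993106 to 80034123), had 8422, 8374 and 7213 normalized counts in Dep 1, 2 and 3, against 10255, 8211 and 7895 in Ctl 1, 2 and 3. Its 6 values were the closest of the members in relative terms, the highest being 1.42 times the lowest. Its log2 fold was -0.13 ± 0.25 (SE), with an interval from -0.68 to 0.43 (limma, adjusted p = 0.9997), and -0.01 without Ctl 1.

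In PRC1, Rnf2, the main H2AK119 ubiquitin ligase gene (ENSMUSG00000026484, chromosome 1, 151458004 to 151500955), had 1389, 2171 and 1840.4 normalized counts in Dep 1, 2 and 3, against 2371, 2690.1 and 1855 in Ctl 1, 2 and 3. Dep 1 was the lowest of all embryos, Dep 3 lay just under the lowest Ctl embryo, and Dep 2 lay among the Ctl embryos. The log2 fold was -0.36 ± 0.28 (SE), with an interval from -0.99 to 0.27 (limma, unadjusted p = 0.228, adjusted p = 0.9997), and -0.19 without Dep 1.

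Kdm2b, the CpG-binding subunit gene of variant PRC1 (ENSMUSG00000029475, chromosome 5, 122870665 to 122989823), had 1474, 1337 and 1867 normalized counts in Dep 1, 2 and 3, against 2084, 1559 and 2024 in Ctl 1, 2 and 3. Dep 1 and Dep 2 were the lowest embryos, and Dep 3 lay above Ctl 2. Its log2 fold was -0.28 ± 0.27 (SE), with an interval from -0.88 to 0.32 (limma, adjusted p = 0.9997). It ranged from -0.42 without Dep 3 to -0.18 without Dep 2.

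Kdm6b, the H3K27 demethylase gene (ENSMUSG00000018476, chromosome 11, 69398508 to 69413675), had 841, 966 and 1580.0 normalized counts in Dep 1, 2 and 3, against 1393, 1060.3 and 1589.5 in Ctl 1, 2 and 3. Dep 1 and Dep 2 lay below every Ctl embryo, and Dep 3 lay beside Ctl 3, the highest. The log2 fold was -0.29 ± 0.33 (SE), with an interval from -1.01 to 0.43 (limma, adjusted p = 0.9997). It was -0.56 without Dep 3 and -0.11 without Dep 1.

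All 6 are annotated as protein-coding on GRCm38. Each overlaps 1 to 4 other annotated genes. Kdm6b overlaps the antisense gene Kdm6bos, Rnf2 the protein-coding Trmt1l on the opposite strand and Kdm2b the protein-coding Rnf34 on the opposite strand. The kit does not mark strand, so reads in shared stretches cannot be told apart. The authors' deposited table gives log2 folds of 0.39 ± 0.32 for Eed and -0.36 ± 0.32 for Rnf2 (with their standard errors) and an adjusted p of 0.9999 for each of the 6.

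The members did not all have their highest value in 1 embryo. Ezh2 and Suz12 were highest in Ctl 1. Kdm6b had its 2 highest values in Ctl 3 and Dep 3, and Kdm2b its 2 highest in Ctl 1 and Ctl 3. Rnf2 was highest in Ctl 2 and Eed in Dep 1, where Rnf2 was lowest. Between same-numbered embryos Eed was higher in Dep in 3 of 3 pairs. Rnf2, Kdm2b and Kdm6b were each lower in Dep in 3 of 3. Ezh2 and Suz12 were higher in Dep in some pairs and lower in others. The labels do not pair these embryos, and the share of all genes with 1 sign in 3 of 3 pairs was not counted. These counts are thus a description of the members only. With the replicate block the smallest unadjusted p among the members was 0.0833, for Eed (limma, adjusted p = 0.941). The within-group standard deviation of the log2 level was 0.17 for Suz12, 0.23 for Ezh2, 0.24 for Kdm2b, 0.30 for Rnf2, 0.33 for Eed and 0.40 for Kdm6b. The median of the members was 0.27, beside 0.54 over all genes, and their mean levels exceeded those of 73.2% (Kdm6b) to 97.3% (Suz12) of the listed genes. Their median log2 fold was -0.20, beside -0.02 over all genes.

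Per length, the scaffold gene was the most abundant member. Levels were computed as RPKM, reads scaled to exon length in kilobases and to the reads in listed genes. The exon length merges all annotated exons of a gene, and is not that of the transcript expressed. The order of genes, and the percentages of paralogues below, may depend on this choice. Suz12 averaged 92.2 ± 7.94 RPKM over the 6 embryos, Eed 35.45 ± 7.19, Rnf2 27.26 ± 6.56, Ezh2 16.11 ± 1.97, Kdm6b 9.84 ± 3.15 and Kdm2b 8.69 ± 1.85 (SD, n = 6 each). The order was read from these same values, so the steps between neighbours are a description with no test. Suz12 exceeded Eed, Rnf2 exceeded Ezh2 and Ezh2 exceeded Kdm6b in 6 of 6 embryos, with mean differences in log2 RPKM of 1.40 ± 0.38, 0.73 ± 0.43 and 0.77 ± 0.41 (SD, n = 6). Eed exceeded Rnf2 in 5 of 6 embryos, by 0.39 ± 0.53, and Kdm6b exceeded Kdm2b in 5 of 6, by 0.14 ± 0.20, so that in both pairs the mean difference was smaller than its SD.

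**Figure D2:**
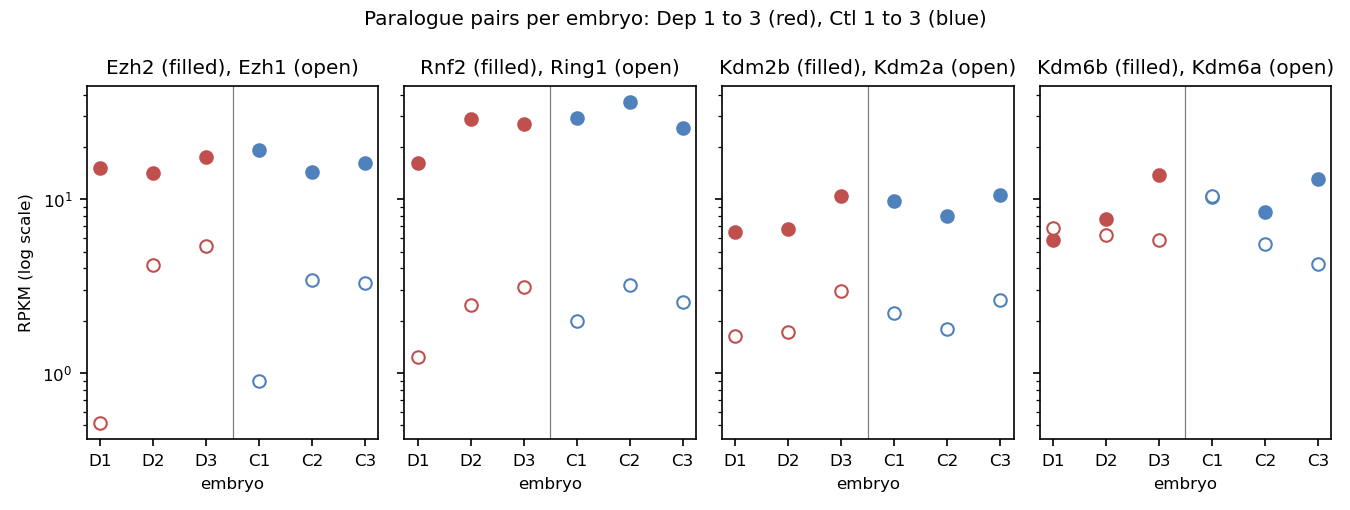
RPKM on a log axis for 4 pairs of paralogues in each embryo, Dep 1 to 3 left in red and Ctl 1 to 3 right in blue, with the member filled and its paralogue open. Ezh1 is lowest in D1 (0.515 RPKM) and C1 (0.894 RPKM), while Ezh2 stays between 14.2 and 19.2 RPKM in all 6 embryos.

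Ezh2, Rnf2, Kdm2b and Kdm6b were each set beside a paralogue. Ezh1, the alternative PRC2 methyltransferase gene, had 80.1, 563 and 657 normalized counts in Dep 1, 2 and 3, against 130.2, 462 and 431 in Ctl 1, 2 and 3. Its log2 fold was 0.07 with all embryos and 1.04 without Dep 1. Ezh1 was low in Dep 1 and Ctl 1 alone, so the split ran within both groups and not between them. In RPKM, Ezh1 stood at 3.39%, 29.3% and 30.8% of Ezh2 in Dep 1, 2 and 3, and at 4.65%, 24.2% and 20.3% in Ctl 1, 2 and 3 (exact permutation p = 0.8 for the log ratio, two-sided). The libraries of Dep 1 and Ctl 1 also had the 2 highest numbers of genes at 0 reads, 691 and 106. They had the highest trophectoderm sums as well, most of which came from Krt8 and Krt18. The part of the genes at 0 or of these sums in the low Ezh1 level was not tested.

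Ring1, the paralogue of Rnf2, stood at 7.68%, 8.44% and 11.5% of Rnf2 in Dep 1, 2 and 3, and at 6.80%, 8.85% and 9.93% in Ctl 1, 2 and 3, in RPKM (exact permutation p = 0.7). Both ligase genes were lowest in Dep 1, where Ring1 had 83.8 normalized counts. Kdm2a, the paralogue of Kdm2b, stood at 25.1%, 25.4% and 28.1% of Kdm2b in Dep 1, 2 and 3, and at 22.6%, 22.4% and 24.9% in Ctl 1, 2 and 3 (exact permutation p = 0.1, the smallest possible). This was the only one of the 5 log ratios computed whose groups did not overlap, and 0.1 does not pass the threshold. The ratio not described here, Bmi1 over Pcgf6, gave p = 0.5 in the same exact permutation test.

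The demethylase genes were nearer to each other in RPKM. Kdm6a, the X-linked H3K27 demethylase gene, had 1189, 942 and 802 normalized counts in Dep 1, 2 and 3, against 1705, 831 and 620 in Ctl 1, 2 and 3. It was highest in Ctl 1, which had almost no reads of the Y-linked paralogue Uty (1.18 normalized counts, against 87.4 to 424 in the other 5 embryos). In RPKM, Kdm6a stood at 117%, 80.9% and 42.1% of Kdm6b in Dep 1, 2 and 3, and at 102%, 65.0% and 32.3% in Ctl 1, 2 and 3 (exact permutation p = 0.6). The share was highest in Dep 1 and Ctl 1 and lowest in Dep 3 and Ctl 3. Kdm6a had a log2 fold of 0.01 ± 0.39 (SE; limma, adjusted p = 0.9997), and its sign turned with the test used.

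**Figure D3:**
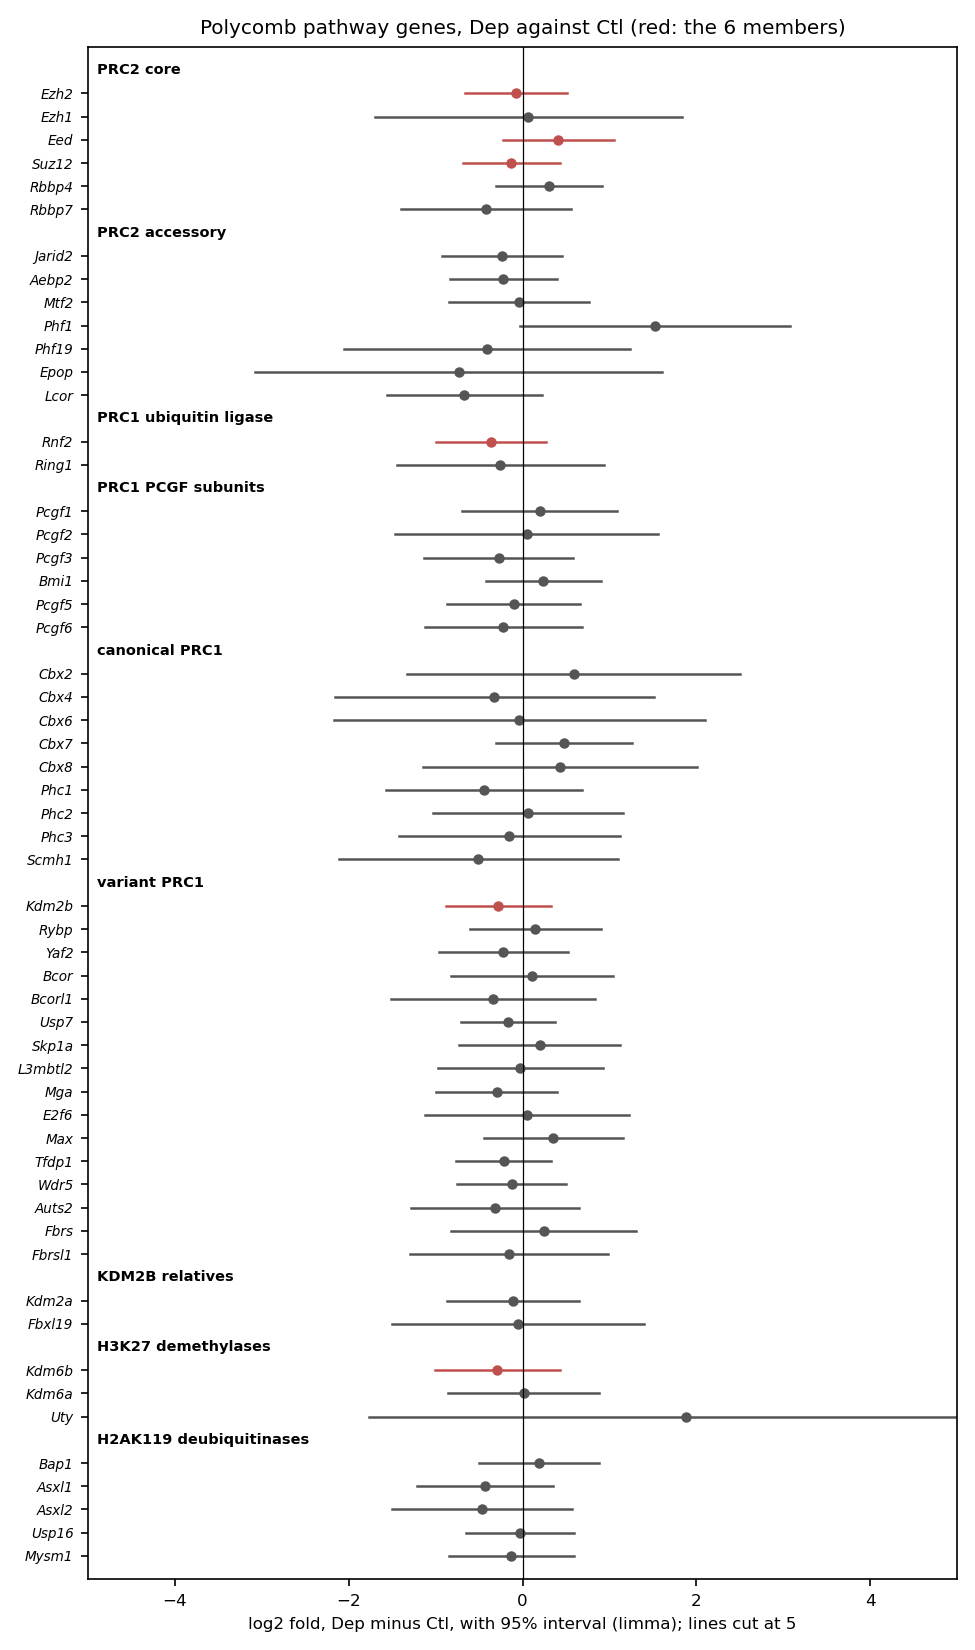
Log2 fold, Dep minus Ctl, of the 56 listed Polycomb pathway genes grouped by role, with 95% intervals from limma and the 6 members in red. Every interval includes 0; that of Phf1 reaches from -0.03 to 3.08.

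The wider pathway was taken as 59 genes in 9 lists, the members included, of which 56 were in the table. Ezhip, Scml2 and Asxl3 were not listed. Of the 56, 0 passed the adjusted threshold in either direction, 20 (35.7%) had a higher mean log2 level in Dep and 36 a lower one, and the median log2 fold was -0.12, beside 48.2% higher and a median of -0.02 over all genes. The number higher was 28 without Dep 1, 27 without Dep 2 and 17 without Ctl 1. With the 6 members set aside, 19 of 50 were higher. Groups did not overlap in 2 of the 56 (3.09% of all genes did not overlap with Dep higher and 3.80% with Dep lower), Phf1 above and Lcor below.

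In the PRC2 core, 3 of 6 genes had the higher mean in Dep. Rbbp4, a histone-binding subunit gene, had 1364 ± 152 normalized counts in Dep and 1108 ± 165 in Ctl (SD, n = 3 each). Rbbp7, its X-linked paralogue, named here after its values were seen, ranged from 6308 to 16365 in Dep and from 7248 to 18590 in Ctl, with Ctl 1 and Dep 2 the highest.

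Of the PRC2 accessory genes, 1 of 7 was higher in Dep. That gene, Phf1, a Tudor domain subunit gene of the Polycomb-like family, had 72.8, 148 and 230.9 normalized counts in Dep 1, 2 and 3, against 36.7, 45.1 and 60.9 in Ctl 1, 2 and 3. All 3 Dep embryos lay above the 3 Ctl embryos, at a low level. The fold on the log2 scale was 1.52 ± 0.70 (SE), with an interval from -0.03 to 3.08 (limma, unadjusted p = 0.0543, adjusted p = 0.9997). The unadjusted p of Phf1 was 0.0446 with edgeR and 0.0257 with DESeq2. With limma it was 0.0241 under quantile normalization, 0.0468 in the fit blocked by replicate number and 0.0124 without Dep 1. In the fit without Dep 1, 474 genes in all had an unadjusted p under 0.05. For Phf1 it was 0.10 with the Y-linked covariate, 0.128 without Dep 2 and 0.205 without Dep 3. Without Ctl 1, 2 and 3 it was 0.115, 0.0993 and 0.0636. Under the remaining alternatives it lay between 0.0514 and 0.0540. The adjusted p stayed between 0.838 and 0.9999 over all alternatives run for Phf1. Phf1 was not tested under the minimum mean of 100, which it does not reach. Phf1 overlaps the protein-coding gene Cuta on the opposite strand, and unstranded reads of the 2 cannot be told apart.

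Lcor, whose locus also encodes the PRC2-associated PALI1 protein, had 203, 352 and 356 normalized counts in Dep 1, 2 and 3, against 587, 483 and 364 in Ctl 1, 2 and 3. The Dep embryos lay below the Ctl embryos, Dep 3 by little, and the log2 fold was -0.67 ± 0.40 (SE; limma, unadjusted p = 0.125, adjusted p = 0.9997), and -0.40 without Dep 1. Jarid2, which helps to recruit PRC2, had 12498, 6431 and 10628 normalized counts in Dep 1, 2 and 3, against 11156, 9482 and 13276 in Ctl 1, 2 and 3. Dep 2 was the lowest embryo, and the others overlapped.

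Epop, a PRC2 subunit gene that was named after its values were seen, had 54.6, 1645 and 1543 normalized counts in Dep 1, 2 and 3, against 623, 1291 and 811 in Ctl 1, 2 and 3. Dep 1 lay far below the rest, and Dep 2 and Dep 3 lay above them all. The log2 fold was -0.74 ± 1.06 (SE) with all embryos and 0.25 with edgeR and all embryos. It was 0.88 without Dep 1 (limma, unadjusted p = 0.0268, adjusted p = 0.987), a fit in which 474 genes in all had an unadjusted p under 0.05. The epiblast marker sum was lowest in Dep 1 (5673) and highest in Dep 2 (12532). In Ctl 3, with Epop at 811, it was 6791. Dep 1 also had the highest number of genes at 0 reads (691). The part of the marker sum or of the genes at 0 in the Epop level was not tested.

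**Figure D4:**
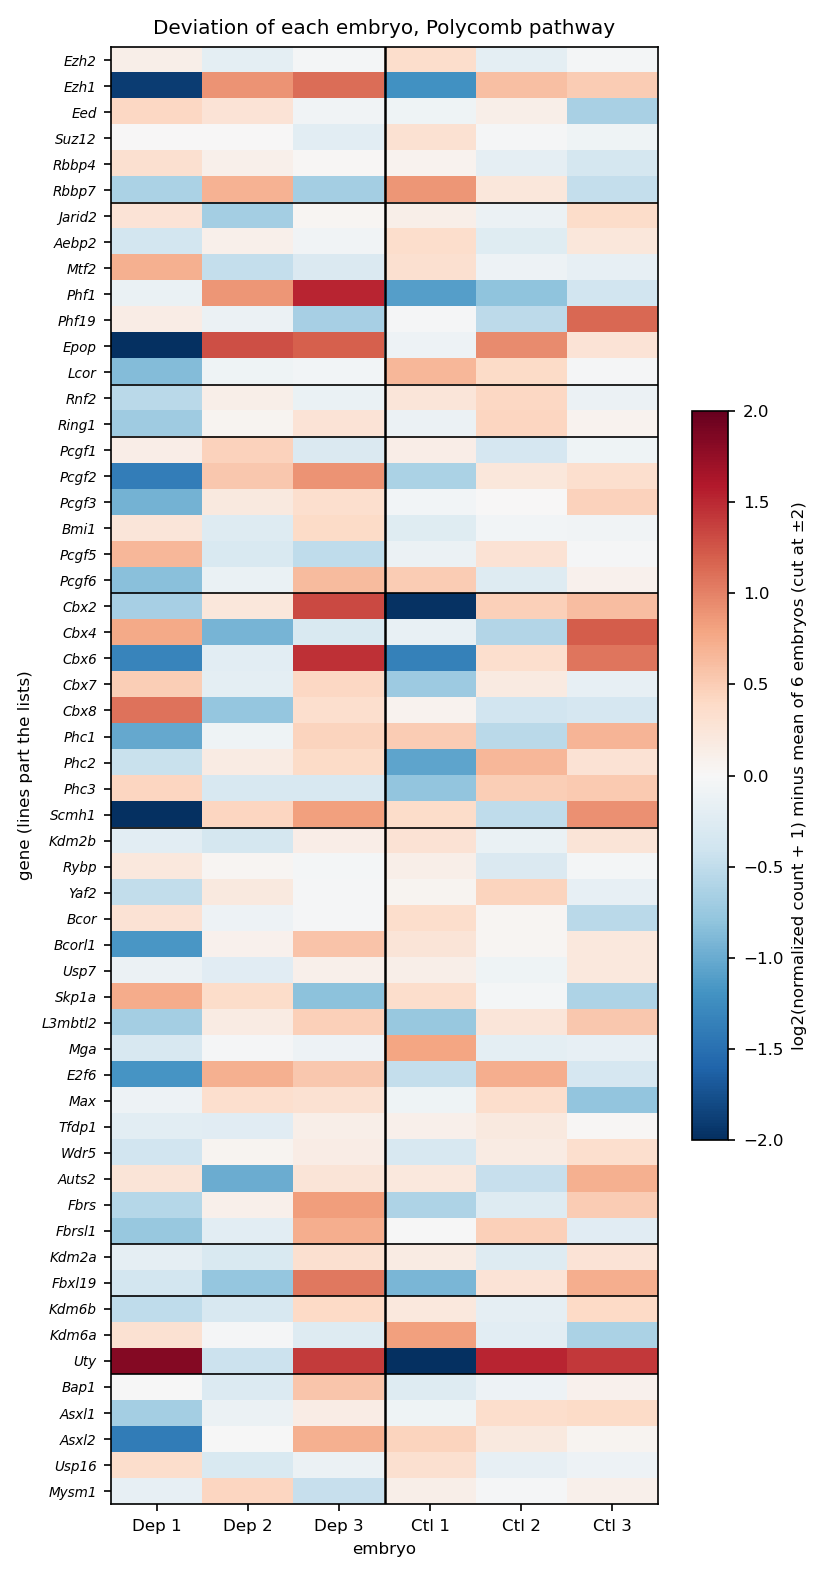
Each cell is an embryo's log2(normalized count + 1) minus the mean of the 6 embryos, for the 56 pathway genes in rows and Dep 1 to 3 (left) and Ctl 1 to 3 (right) in columns, with colours cut at ±2. Suz12 and Usp7 are pale throughout, whereas Ezh1 and Epop are deep blue in Dep 1.

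The 6 PCGF subunit genes of PRC1 were split evenly in direction. Bmi1 had 1017 ± 225 normalized counts in Dep and 848 ± 58.1 in Ctl, and Pcgf3 had 840.0 ± 346 in Dep and 957 ± 199 in Ctl (SD, n = 3 each). Of the canonical PRC1 genes 4 of 9 were higher in Dep. Cbx7, which encodes a chromodomain reader of H3K27 methylation, had 948 ± 228 in Dep and 690 ± 209 in Ctl, and Phc1, a polyhomeotic subunit gene, 295 ± 138 in Dep and 392 ± 154 in Ctl (SD, n = 3 each).

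Of the variant PRC1 genes 6 of 16 were higher in Dep. Rybp, whose product stimulates the ligase, had 454 ± 40.4 normalized counts in Dep and 411 ± 56.5 in Ctl, and Max, a partner of MGA, had 860.1 ± 135 in Dep and 701 ± 262 in Ctl (SD, n = 3 each). Usp7 and Tfdp1 were named after their values were seen. Usp7 had 5465 ± 621 in Dep and 6122 ± 618 in Ctl, and Tfdp1 had 2823 ± 394 in Dep and 3266 ± 189 in Ctl (SD, n = 3 each). Fbxl19, another CpG-binding relative of Kdm2b, had 186 ± 133 in Dep and 183 ± 92.2 in Ctl.

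The H2AK119 deubiquitinase list, which opposes PRC1, had 1 of 5 genes higher in Dep. That was Bap1, the catalytic subunit gene, at 1089 ± 329 normalized counts in Dep and 934 ± 110 in Ctl. Its partners Asxl1, at 486 ± 135 in Dep and 643.5 ± 109 in Ctl, and Asxl2, at 1105 ± 692 in Dep and 1303 ± 176 in Ctl, had the lower means (SD, n = 3 each). Asxl2 had 419 in Dep 1, and its fold turned positive without that embryo.

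Genes under Polycomb control in other settings were read as a further measurement. Of 6 genes with imprinting that depends on H3K27 methylation, 1 had the higher mean log2 level in Dep, and the median of their folds was -0.05. Slc38a4, a paternally expressed amino acid transporter gene, had 2074, 2019 and 1438 normalized counts in Dep 1, 2 and 3, against 2682, 4060.2 and 1803 in Ctl 1, 2 and 3. Ctl 2 was the highest, Dep 1 and Dep 2 lay above Ctl 3, and the log2 fold was -0.57 ± 0.33 (SE; limma, unadjusted p = 0.118, adjusted p = 0.9997). Slc38a4 was lower in Dep in 3 of 3 same-numbered pairs, a pattern not counted over all genes. Limma with the replicate block gave it an unadjusted p of 0.0388 and an adjusted p of 0.941. In that fit 420 genes in all had an unadjusted p under 0.05. The fold of Slc38a4 was -0.27 without Ctl 2 and -0.86 without Ctl 3 (limma, unadjusted p = 0.0351), and its adjusted p over all alternatives lay between 0.860 and 0.9999. Xist, the RNA that silences an X chromosome, spanned 151 to 5589 in Dep and 874 to 10312 in Ctl. It was highest in Ctl 1, where the Y-linked genes summed to 2.37 normalized counts, and lowest in Dep 1, where they summed to 4760. Dep 2, Dep 3 and Ctl 2 had both Xist, at 3783.5, 5589 and 5518, and Y-linked counts, at 637.5, 3052 and 3515. Ctl 3 had 874 and 4765. The part of embryo sex in these levels, and whether a library held RNA of more than 1 embryo, were not tested.

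Of 20 developmental genes that Polycomb silences in mouse embryonic stem cells, 7 were in the table, and 3 of these had the higher mean log2 level in Dep. Their normalized counts summed to 1.21, 1243 and 1153 in Dep 1, 2 and 3, against 364.5, 666 and 326 in Ctl 1, 2 and 3. Dep 1 had almost none, and Dep 2 and Dep 3 exceeded the Ctl embryos. Most of the sum in Dep 2 and Dep 3 was Gata4 (493 and 247) and Sox17 (327 and 582), which are also primitive endoderm markers. In Ctl 1, 2 and 3, Gata4 was at 34.3, 274 and 0, and Sox17 at 121, 115 and 0.883. Without Gata4 and Sox17, the sum in Dep 3 did not exceed that in Ctl 3. Gsc had 1.21, 148 and 137 in Dep 1, 2 and 3, against 66.3, 127 and 80.3 in Ctl 1, 2 and 3. Cdkn2b, a cell cycle inhibitor gene, had 0, 69.5 and 45.5 in Dep 1, 2 and 3, against 15.4, 68.5 and 54.7 in Ctl 1, 2 and 3. The log2 folds of Gsc and Cdkn2b were -1.31 and -1.42 with all embryos, and 0.69 and 0.52 without Dep 1. The part of cell makeup in these levels was not tested.

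The genes most like each member over the 6 embryos were ranked by Pearson's r of the log2 levels among 9473 genes with a mean of at least 100 normalized counts. Ezh2 was most like Dlg1 (r = 0.994) and Dysf (0.992), Eed most like Zfp977 (0.997) and Recql (0.997), and Suz12 most like Map3k12 (0.986) and Med13 (0.975). Rnf2 was most like Srcap (0.994) and Itsn2 (0.993), Kdm2b most like 1110038B12Rik (0.991) and Smim13 (0.991), and Kdm6b most like Triml2 (0.992) and Mycbp2 (0.990). No member was among the 2 most like another. With 6 embryos and so many genes such values are a ranking only, and all genes of an embryo share its library, depth and size factor. Under quantile normalization r was -0.10 for Suz12 and Map3k12, 0.37 for Suz12 and Med13, 0.77 for Rnf2 and Srcap and 0.78 for Ezh2 and Dysf.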

How the data were processed

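Per the labels' protocols, each embryo was lysed whole and reverse transcribed with a SMART-Seq v4 kit, which does not mark strand. HISAT2, Cufflinks 2.2.1 and mm10 stand, without roles, in the submitters' processing notes. What counted the reads is not given in the sources used here. For each gene the authors deposited a signal in every library, which its values show to be reads over a size factor. They also deposited, per the file headers, the log2 fold change with its error, the statistic (a score) and p-values, raw and adjusted. Whole reads were recovered for 100% of values per library within 0.01. Dep 2 has a step of 0.993, which was taken for a size factor by analogy with the others. The lowest mean is 14.2 normalized counts, so genes of fewer reads were left out before deposit.

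Identifiers were matched to GENCODE M21 (GRCm38, the assembly mm10 names): 11829 of 12149 matched. limma 3.58.1 (trend, pseudocount 1) was the test, as the values are normalized; edgeR 4.0.16 and DESeq2 1.42.0 ran on recovered reads, in R 4.3.3 and Python 3.11.15. Limma without block or covariate, edgeR and DESeq2 were checked on simulated data holding 200 genes with known folds. The other alternative fits were not checked in this way. Members and lists were chosen with earlier results of these data known. Named genes are the members, 8 fixed relatives, up to 2 genes of smallest p per list and the 2 most like each member; others are said to be chosen after their values were seen. Deviations from group means correlated between same-numbered embryos (r = 0.133, 0.151 and 0.129), so by a rule on these correlations the numbers were taken to pair embryos. The labels do not say so. Between embryos of different numbers r lay between -0.158 and 0.044. The pairing was chosen from the same values that the replicate block then tests, so the p-values of that fit may be too small. The pairing was used in the replicate block and in the counts of pairs. The main fit, edgeR, DESeq2 and the permutation tests between the groups did not use it. Counting error and embryo spread limit precision, and reads without molecular identifiers are not independent molecules.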

Additional observations from a re-analysis of the deposited data

How the results depend on the processing

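Of the 6 members, 5 kept the direction of their fold under all 15 alternatives, and Ezh2 (-0.08) turned in 3: to 0.0145 with the Y-linked level as a covariate, to 0.0002 without Dep 2 and to 0.084 without Ctl 1. No member had an adjusted p under 0.838 in any. With all embryos 0 genes passed, and DESeq2 passed 1. The number of genes with an unadjusted p under 0.05 (225) was 420 with the replicate block, 143 with the Y-linked covariate and 122 (without Ctl 1) to 576 (without Dep 3) with 1 embryo left out. The replicate block changed no call among the members, and among the other named genes it took Phf1 and Slc38a4 under the unadjusted threshold. Members higher in Dep (1) numbered 2 with the Y-linked covariate and 1 to 2 with an embryo left out. Pathway genes at that threshold (0) numbered 1, Phf1, under quantile normalization, edgeR, DESeq2 and the replicate block, and 0 to 2 with an embryo left out. Pathway genes higher in Dep (20) numbered 17 to 28 with an embryo left out.

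The fold of Ezh1 was -0.23 with the Y-linked covariate. That of Kdm6a was -0.0103 under quantile normalization, -0.11 with edgeR and -0.11 with DESeq2, and that of Fbxl19 was 0.0038, 0.0242 and 0.02. Gsc had 0.071 with edgeR and 0.0682 with DESeq2, and Epop 0.25 and 0.25. With 1 embryo left out, folds ranged from -0.19 to 0.084 for Ezh2, -0.52 to 1.04 for Ezh1, -0.44 to 0.0414 for Jarid2, -0.45 to 0.0394 for Ring1, -0.30 to 0.0137 for Kdm2a, -0.30 to 0.43 for Kdm6a, -0.0454 to 0.37 for Bap1 and -0.51 to 0.13 for Pcgf3. They ranged from -0.60 to 0.32 for Fbxl19, -0.53 to 3.11 for Uty, -0.94 to 0.12 for Asxl2, -2.36 to 0.32 for Xist, -2.34 to 0.69 for Gsc, -2.55 to 0.52 for Cdkn2b and -1.57 to 0.88 for Epop. The cause was not tested. With 3 embryos a group, the intervals of the members reach 0.27 (Rnf2) to 1.05 (Eed) upwards and -0.23 (Eed) to -1.01 (Kdm6b) downwards.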
